A study of Mus musculus with 8 samples.

Results

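The 9 genes described here belong to fibroblast growth factor (FGF) signalling and to its best known intracellular route, the ERK kinase cascade. They are the ligand Fgf4, the receptors Fgfr1 and Fgfr2, the adaptor Grb2, the feedback inhibitors Spry2, Spry4 and Dusp6, and the transcription factors Etv4 and Etv5. They were given by name as genes of this pathway, with earlier results of these data known, and each matched 1 row among the 19688 genes of the table. RNA was sequenced from mouse blastocysts in 8 libraries. There were 2 libraries of fresh blastocysts, which served as the control, 3 of blastocysts frozen by vitrification and thawed without melatonin, and 3 of blastocysts vitrified and thawed in media holding 1e-10 M melatonin, a hormone that scavenges oxidants. The labels name no mouse strain, embryo age or number of embryos per library. The titles of the fresh libraries begin with the letters IVF. The labels give no further account of how biosamples were obtained. Every p-value here thus measures the spread between these samples, which may be technical. The vitrified libraries differ in Y-linked transcripts, as given below, so they are not all repeats of 1 sample.

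In FGF signalling, a secreted ligand binds a receptor tyrosine kinase together with heparan sulfate, and the receptor recruits adaptors that switch on RAS, RAF, MEK and ERK in turn. ERK then acts on transcription factors, among them those of the ETS family, and induces its own inhibitors. In the mouse blastocyst, epiblast cells secrete FGF4, and the neighbouring cells that respond to it take the primitive endoderm fate. The trophectoderm, the outer layer, also carries receptors and depends on the same ligand for its growth.

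The stretches before the start sites of 4 members are shown first, because these were the members with an unadjusted p below 0.05 in at least 1 of the comparisons given further below. They come from RefSeq on GRCm38.p6, the build also called mm10, and each is the 250 bases before the start, written 5′ to 3′ on the strand of the gene. Capitals mark a GC box (GGGCGG on either strand), the sequence bound by SP1-type factors.

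Fgf4 (chr7:144861136-144861385, plus strand): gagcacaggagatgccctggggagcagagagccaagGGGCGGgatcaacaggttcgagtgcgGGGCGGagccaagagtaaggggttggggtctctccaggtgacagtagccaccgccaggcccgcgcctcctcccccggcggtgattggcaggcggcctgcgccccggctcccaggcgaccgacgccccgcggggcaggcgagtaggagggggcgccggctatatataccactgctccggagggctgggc
Etv5 (chr16:22439571-22439820, minus strand): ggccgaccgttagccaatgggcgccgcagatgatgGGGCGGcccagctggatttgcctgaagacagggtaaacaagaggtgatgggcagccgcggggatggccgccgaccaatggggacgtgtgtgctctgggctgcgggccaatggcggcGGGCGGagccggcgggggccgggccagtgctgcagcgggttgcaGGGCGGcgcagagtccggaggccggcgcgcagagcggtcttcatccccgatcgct
Dusp6 (chr10:99262981-99263230, plus strand): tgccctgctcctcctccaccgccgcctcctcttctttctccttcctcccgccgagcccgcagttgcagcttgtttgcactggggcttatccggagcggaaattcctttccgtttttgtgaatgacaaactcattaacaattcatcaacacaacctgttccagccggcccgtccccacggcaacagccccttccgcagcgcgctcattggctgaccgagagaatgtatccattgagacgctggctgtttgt
Spry2 (chr14:105896820-105897069, minus strand): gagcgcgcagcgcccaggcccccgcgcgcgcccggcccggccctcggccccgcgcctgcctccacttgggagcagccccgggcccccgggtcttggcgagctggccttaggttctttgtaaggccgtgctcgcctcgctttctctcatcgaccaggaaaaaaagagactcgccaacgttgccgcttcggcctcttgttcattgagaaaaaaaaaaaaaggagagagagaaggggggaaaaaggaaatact

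The window of Fgf4 held 2 GC boxes, the nearer one 188 to 183 bases before the start. The Etv5 window shown held 3, the nearest 55 to 50 bases before its start. Another RefSeq window of Etv5, not shown (chr16:22438369-22438618), held 0, with 62.0% G and C. The windows of Dusp6 and Spry2 held 0. A GC box lay in 32.7% of all 32851 windows in the RefSeq table. In the windows shown, G and C made up 71.2% of bases in Fgf4 and Etv5, 62.4% in Spry2 and 56.4% in Dusp6. The median over all windows was 52.4%. RefSeq entries matched 6 of the 9 members, with 8 windows between them, and Fgfr1, Spry4 and Etv4 had no entry. Both strands of these 8 windows were also searched for the longer ETS site CCGGAA, found in 0 of them and in 12.0% of all windows. The shorter ETS core GGAA, which the Dusp6 and Spry2 windows hold, was not counted. An AP-1 motif (TGANTCA) was found in 0 and in 6.75%. The exact letters TATAAA of a TATA box lay in 1 of the 8 and in 12.4% of all windows. This match was in a Grb2 window inside the span of the gene, 228 to 223 bases before the start. Variants such as the tatatata near the start of Fgf4 were not counted. These matches describe the letters of the windows alone.

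Levels are given in FPKM, a fragment count corrected for the length of the transcript and the size of the library, which lets genes be set side by side. Dusp6 was the most abundant member in each of the 8 libraries, with 41.3 to 89.2 FPKM, above 94.4% of all genes in the table by its mean. Fgfr2 came next in all 8, at 7.60 to 16.2 FPKM, and its range overlapped neither that of Dusp6 nor that of Fgf4. The order of the members below these does not hold beyond their spread. Mean levels over the 8 libraries were 4.75 FPKM for Fgf4, 3.47 for Grb2, 3.10 for Spry2, 2.61 for Etv5, 2.12 for Fgfr1 and 1.82 for Spry4, and each of these ranges overlapped the next. Etv4 had the lowest level, with at most 0.38 FPKM.

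**Figure D1:**
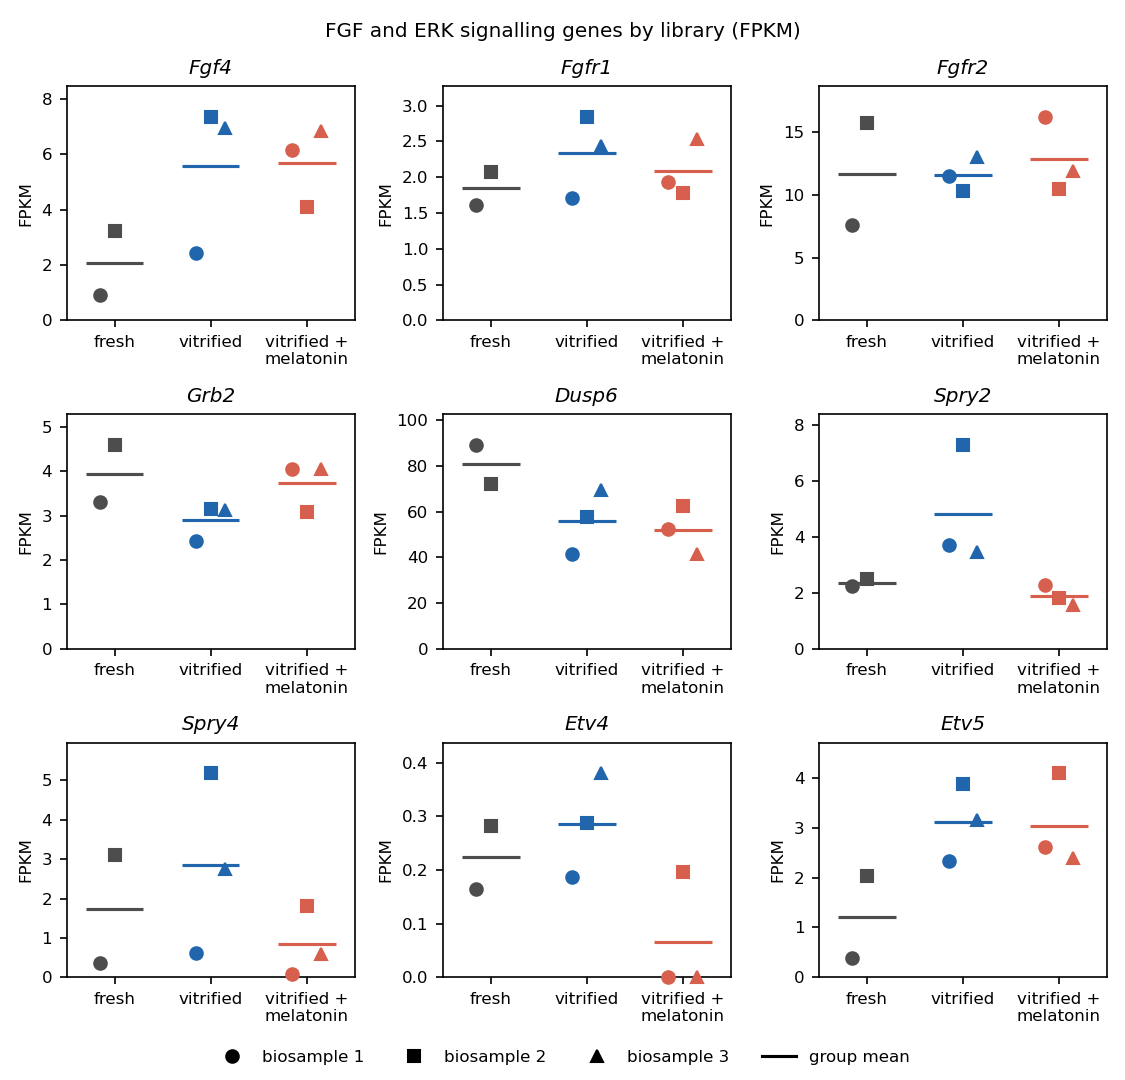
Level of each of the 9 genes in FPKM (vertical axis, linear, from 0) in the 8 libraries, by group; marker shapes give the biosample number and bars the group mean. Fgf4 and Etv5 are lowest in fresh biosample 1 (0.92 and 0.38 FPKM), Dusp6 is highest in the fresh libraries (89.2 and 72.3 FPKM), and Spry2 is highest in the vitrified libraries.

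An estimated 5813000 to 8189000 fragments lay behind 7 libraries and 9976000 behind fresh biosample 1. That library also stood apart in the first principal component (-52.5, against -14.2 to 18.4 in the other 7, with 29.1% of the variance), and transcripts of the mitochondrial genome took 11.3% of its FPKM against 4.24% to 6.56%. Vitrified biosamples 2 and 3 were without the Y-linked transcripts Ddx3y and Eif2s3y and had Xist at 10.5 and 8.14 FPKM. The other 6 libraries had Eif2s3y at 14.8 FPKM or more and Xist at 0.96 or less, so that sex and vitrification are partly confounded. The labelled stage was matched by its markers: Krt18 and Krt8 of the trophectoderm averaged 6536 and 2531 FPKM. Of the fixed epiblast, primitive endoderm and trophectoderm markers, 15 of 17, 17 of 17 and 17 of 18 passed the filter used for testing. Of 8 fibroblast and 14 cumulus cell markers, 4 and 7 were among the genes of the table, and the sums cover these alone. Fibroblast markers summed to at most 0.34 FPKM in any library, and cumulus cell markers to 2.48 to 7.18 FPKM. The highest cumulus sums were 7.18 and 6.00 FPKM, in vitrified biosamples 2 and 3.

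The comparison of vitrified with fresh blastocysts asks what freezing and thawing change. In the limma model over all genes, 0 of the 8 members tested had an adjusted p below 0.05, where 0.865% of all tested genes did. These were 82 higher and 11 lower genes, against 3 and 4 with median ratio scaling and 0 and 3 with quantile normalization, which moved the median of all genes from 0.14 to 0.01 and -0.02. Etv4 did not reach 1 FPKM in any library and was not tested. At an unadjusted p below 0.05 there were 3 members, Fgf4, Etv5 and Spry2, each higher after vitrification, against 20.2% of all genes. The groups did not overlap in 4 members, higher for Etv5 and Spry2 and lower for Dusp6 and Grb2, against 37% of all genes. The median difference of the 8 was 0.36 on the scale of log2(FPKM + 1), and that of all tested genes was 0.14.

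The comparison of melatonin with vitrification alone asks what the added melatonin changes. Again 0 of 8 members passed with limma, where 0.139% of all genes did. Only Spry2 had an unadjusted p below 0.05, and it was also the 1 member without overlap between the groups, lower in both counts, where the shares of all genes were 14.8% and 24.7%. The median difference of the members was -0.07 and that of all genes -0.05.

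In the comparison of melatonin-vitrified with fresh blastocysts, which shares its control libraries with the first, 0 of 8 members and 0% of all genes passed with limma. Fgf4 and Etv5 (higher) and Dusp6 (lower) had an unadjusted p below 0.05, against 18.5% of all genes. The same 3 members were those without overlap between the groups, against 34.3% of all genes. The median difference was 0.03 in the members and 0.09 in all genes.

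**Figure D2:**
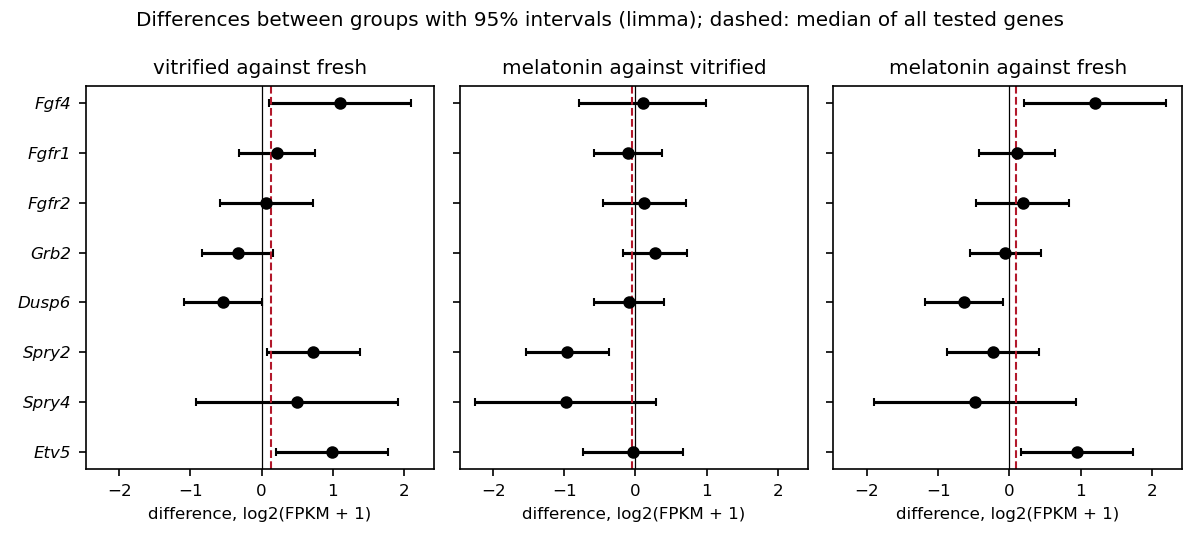
Difference of each of the 8 tested members between groups on the log2(FPKM + 1) scale (horizontal axis) with its 95% interval from limma, in 3 panels for the 3 comparisons; the dashed line is the median of all tested genes. Fgf4 and Etv5 lie near 1 in both comparisons with fresh blastocysts and near 0 between the vitrified groups, while Spry2 lies at -0.96 with melatonin against vitrification alone.

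Fgf4 (chromosome 7, 144861386 to 144865245), the ligand that epiblast cells secrete, was at 0.92 and 3.23 FPKM in fresh biosamples 1 and 2. It was at 2.44, 7.36 and 6.96 FPKM in the 3 vitrified libraries and at 6.14, 4.10 and 6.82 FPKM with melatonin. The melatonin libraries all lay above both fresh ones, while vitrified biosample 1 fell between the fresh libraries. The log2 difference from fresh was 1.10 ± 0.44 (SE) after vitrification, with a limma adjusted p of 0.207. With melatonin it was 1.20 ± 0.44 (adjusted p = 0.211), 0.64 without fresh biosample 1 and 1.77 without fresh biosample 2. Between the vitrified groups it was 0.10 ± 0.40, with a 95% interval from -0.79 to 1.00. The difference after vitrification was 0.53 without fresh biosample 1 and 1.67 without fresh biosample 2. With the presence of Y-linked transcripts as a covariate, added after seeing the data, it was 0.27, and the difference between the vitrified groups was 0.93, in a fit where vitrified biosample 1 alone stands for its group.

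Since whole embryos were sequenced, fewer cells of a type and less RNA per cell cannot be told apart. The other 16 epiblast markers summed to 10819 and 11350 FPKM in the fresh libraries, 8394 to 10239 in the vitrified and 8630 to 10781 with melatonin, with Dppa5a making up most of each sum. Without Dppa5a, a choice made after seeing the data, the sums were 385 and 455 FPKM in fresh, 503, 690 and 542 in vitrified and 486, 621 and 582 in melatonin libraries. Fresh biosample 1 was lowest for this sum as for Fgf4, and both fresh libraries lay below the other 6. The median difference of the tested epiblast markers after vitrification was 0.91, and 11 of the 15 were higher and 1 lower at an unadjusted p below 0.05, against 1679 higher and 490 lower of all 10755 genes tested. Of the 15 epiblast markers tested, Fgf4 included, 1 passed between vitrified and fresh blastocysts, Nanog, which rose from 6.64 ± 4.46 (SD, n = 2) to 31.2 ± 2.60 FPKM (SD, n = 3), with a limma adjusted p of 0.0394. Nanog passed in 7 of 19 other settings, in all of which it was higher, with adjusted p from 0.00155 to 0.161. It did not pass with median ratio scaling, quantile normalization, or without fresh biosample 1, any single vitrified library or melatonin biosample 3. Nor did Nanog pass with no filter on low values, only the 2 groups compared, or the biosample number as a block. With library weights and with the covariate for Y-linked transcripts Nanog also did not pass. Its log2 difference of 2.21 was 1.57 without fresh biosample 1. The part of these markers in the level of Fgf4 was not tested.

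Among the other ligands, Fgf3 and Fgf10 were the only ones of the 22 in the fixed list, besides Fgf4, that reached the filter. Fgf3 was at 3.76 and 7.94 FPKM in fresh, 0.31, 4.54 and 4.88 in vitrified and 2.00, 4.87 and 0.41 in melatonin libraries. All 3 groups overlapped. Fgf10 was at 2.27 and 7.23, then 2.67, 5.86 and 3.71, then 2.76, 4.44 and 1.44 FPKM in the same order. None of the 3 ligands passed with limma in any comparison.

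Fgfr2 (chromosome 7, 130162451 to 130266808), the receptor of the primitive endoderm and trophectoderm, was at 7.60 and 15.7 FPKM in fresh libraries. It was at 11.5, 10.3 and 13.0 FPKM after vitrification and at 16.2, 10.5 and 11.9 with melatonin. All 3 groups overlapped, and the fresh pair spanned nearly the whole range. The log2 difference was 0.07 ± 0.29 after vitrification (95% interval -0.58 to 0.72), 0.12 ± 0.26 with melatonin against vitrification alone (-0.46 to 0.70) and 0.19 ± 0.29 with melatonin against fresh (-0.46 to 0.84). The first of these was -0.09 with median ratio scaling and -0.11 with quantile normalization.

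Fgfr1 (chromosome 8, 25518759 to 25575718), the receptor that epiblast cells also carry, was at 1.62 and 2.08 FPKM in fresh libraries. It was at 1.71, 2.85 and 2.44 FPKM after vitrification and at 1.94, 1.78 and 2.53 with melatonin. Every library lay within 0.32 of the mean of the gene on the log2(FPKM + 1) scale, and all 3 groups overlapped. The log2 differences were 0.22 ± 0.24, -0.11 ± 0.21 and 0.11 ± 0.24 in the 3 comparisons, with intervals of -0.31 to 0.75, -0.58 to 0.37 and -0.42 to 0.64. The ratio of Fgfr2 to Fgfr1 was 4.69 and 7.54 in fresh, 6.71, 3.61 and 5.32 in vitrified and 8.38, 5.89 and 4.69 in melatonin libraries. Fgfr2 was thus the more abundant receptor in every library, by a factor that overlapped between groups.

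Of the 18 genes listed as FGF receptors and coreceptors, 13 were tested and 0 passed in any comparison. Flrt3, a membrane protein that binds FGF receptors, was at 4.64, 10.6 and 9.31 FPKM after vitrification and at 1.71, 3.66 and 2.24 with melatonin. These groups did not overlap, with a log2 difference of -1.35 ± 0.39 and a limma adjusted p of 0.197. Flrt3 passed in 1 of 19 other settings, library weights (adjusted p = 0.0479), where calls over all genes went from 3 higher and 12 lower to 36 and 197. With the covariate for Y-linked transcripts its difference was -0.71 (adjusted p = 0.986). In fresh libraries Flrt3 was at 1.94 and 6.20 FPKM. The heparan sulfate enzyme Ext1 had a log2 difference of 0.56 ± 0.22 after vitrification (adjusted p = 0.193), and the proteoglycan Sdc4, the most abundant gene of the list at a mean of 145 FPKM, one of -0.30 ± 0.13 with melatonin against vitrification alone (adjusted p = 0.326).

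Grb2 (chromosome 11, 115644045 to 115708597), the adaptor that links activated receptors to RAS, was at 3.30 and 4.59 FPKM in fresh libraries. It was at 2.42, 3.15 and 3.12 FPKM after vitrification and at 4.06, 3.07 and 4.04 with melatonin. The vitrified libraries all lay below both fresh ones, and 2 of the melatonin libraries lay within the fresh range. The log2 differences were -0.34 ± 0.22 after vitrification (limma adjusted p = 0.431; -0.52 without fresh biosample 1 and -0.15 without fresh biosample 2), 0.28 ± 0.20 with melatonin against vitrification alone (adjusted p = 0.543) and -0.06 ± 0.22 with melatonin against fresh (adjusted p = 0.91).

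Of the 20 receptor adaptors and RAS exchange factors listed, 13 were tested and 0 passed in any comparison. The median difference of this list with melatonin against vitrification alone was 0.27, where that of all genes was -0.05, with 9 genes above 0 and 4 below. The phosphatase Ptpn11, known as SHP2 and needed for RAS activation by FGF receptors, was at 4.17, 3.57 and 3.40 FPKM after vitrification and at 2.15, 1.27 and 1.87 with melatonin. These groups did not overlap, with a log2 difference of -0.78 ± 0.21 (adjusted p = 0.176). The adaptor Grb7 had a log2 difference of 0.78 ± 0.18 with melatonin against fresh (adjusted p = 0.135), the docking protein Gab2 one of 0.71 ± 0.28 with melatonin against vitrification alone (adjusted p = 0.285). Gab1, the most abundant of the list at a mean of 22.2 FPKM, had one of 0.48 ± 0.24 with melatonin against fresh (adjusted p = 0.313).

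Of 24 genes for RAS, RAF, MEK, ERK and their scaffolds, 19 were tested and 0 passed. The medians of the list were -0.01, -0.04 and 0.09 in the 3 comparisons. Shoc2, a scaffold that aids RAF activation, had a log2 difference of 0.53 ± 0.16 with melatonin against vitrification alone (limma adjusted p = 0.199), and the small GTPase Rap1b, the most abundant of the list at a mean of 239 FPKM, one of -0.38 ± 0.13 after vitrification (adjusted p = 0.145). The scaffold Iqgap1 was at 2.26 FPKM in fresh biosample 1 and at 23.7 to 35.0 FPKM in the other 7 libraries. Its log2 difference after vitrification was 1.81 ± 0.66 (adjusted p = 0.172), and 0.27 without fresh biosample 1. Without fresh biosample 2 it was 3.34, with an adjusted p of 0.000305, and with the title number as a block 3.41, with one of 0.0399.

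Dusp6 (chromosome 10, 99263231 to 99267489), the phosphatase that inactivates ERK in the cytoplasm and is itself induced by ERK, was at 89.2 and 72.3 FPKM in fresh libraries. It was at 41.3, 57.8 and 69.3 FPKM after vitrification and at 52.3, 62.4 and 41.4 with melatonin. All 6 vitrified libraries lay below both fresh ones, and vitrified biosample 3 came closest to them. The log2 difference was -0.54 ± 0.25 after vitrification (limma adjusted p = 0.254) and -0.64 ± 0.25 with melatonin against fresh (adjusted p = 0.223). Between the vitrified groups it was -0.10 ± 0.22, with an interval from -0.59 to 0.40. The difference after vitrification was -0.34 without vitrified biosample 1 and -0.94 with the covariate for Y-linked transcripts.

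Spry2 (chromosome 14, 105891947 to 105896819), an inhibitor of receptor tyrosine kinase signalling upstream of ERK, was at 2.25 and 2.47 FPKM in fresh libraries. It was at 3.69, 7.27 and 3.45 FPKM after vitrification and at 2.28, 1.79 and 1.56 with melatonin. Every vitrified library without melatonin lay above the other 5 libraries, while the fresh and melatonin libraries overlapped. Spry2 has 1 annotated transcript, and its values correspond to an estimated 46.9 and 30.0 fragments in fresh, 54.0, 104 and 58.9 in vitrified and 33.9, 22.0 and 23.0 in melatonin libraries. The log2 difference was 0.73 ± 0.29 after vitrification (limma adjusted p = 0.203), 0.44 without vitrified biosample 2 and 0.48 with the covariate for Y-linked transcripts. With melatonin against vitrification alone it was -0.96 ± 0.26 (95% interval -1.54 to -0.38, adjusted p = 0.181), and with melatonin against fresh -0.23 ± 0.29 (adjusted p = 0.703). Over 18 other settings, that covariate among them, the difference with melatonin against vitrification alone was -1.24 to -0.67 and passed in 0. Vitrified biosample 1, at 3.69 FPKM, is the library of its group with Y-linked transcripts. It alone stands for its group in the fit with the covariate, and the part of embryo sex was not tested.

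Spry4 (chromosome 18, 38586247 to 38601347), a second Sprouty inhibitor, was at 0.37 and 3.11 FPKM in fresh libraries. It was at 0.62, 5.18 and 2.76 FPKM after vitrification and at 0.09, 1.82 and 0.59 with melatonin. It had the widest spread of the members within every group, from 1.37 to 1.93 on the log2(FPKM + 1) scale, and all groups overlapped. The log2 differences were 0.50 ± 0.63, -0.98 ± 0.56 and -0.49 ± 0.63 in the 3 comparisons, with limma adjusted p of 0.7, 0.438 and 0.717. Within the vitrified group the 2 libraries without Y-linked transcripts were those at 5.18 and 2.76 FPKM. With the covariate for these transcripts the first 2 differences were -0.55 and 0.07, the reverse in sign.

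Of the 23 listed inhibitors of ERK signalling, 14 were tested and 0 passed in any comparison. With melatonin against vitrification alone, 11 were below 0 and 3 above, 4 had an unadjusted p below 0.05, all lower, and the median was -0.25, against 14.8% and -0.05 over all genes. With melatonin against fresh the median was -0.35, again with 11 below 0 and 3 above, and 5 were lower and 0 higher at that level, against 18.5% of all genes. After vitrification the median was -0.04, with 3 higher and 4 lower at that level, against 20.2% of all genes. Markers of the primitive endoderm moved alongside: 16 of 17 were below 0 with melatonin against vitrification alone, with a median of -0.43 and 0 past the threshold. The 1 above 0 was the member Fgfr2, at 0.12. In the same comparison 13 of 17 trophectoderm markers were above 0 and 4 below, with a median of 0.28. The sum of the 16 primitive endoderm markers that are no members was 182 and 353 FPKM in fresh libraries. It was 262 to 419 FPKM in vitrified and 207 to 266 in melatonin libraries. Their part in the levels of Spry2, Spry4, Flrt3 and the other inhibitors was not tested. Dusp5, a nuclear ERK phosphatase, was at 1.78 and 1.74 FPKM in fresh, 0.40, 1.18 and 0.99 in vitrified and 0.06, 0.14 and 0.34 in melatonin libraries, with no overlap between any pair of groups. Its log2 difference with melatonin against fresh was -1.23 ± 0.25 (adjusted p = 0.117). Dusp1, a phosphatase of several MAP kinases, had a log2 difference of -0.95 ± 0.24 in the same comparison (adjusted p = 0.141).

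Etv5 (chromosome 16, 22381313 to 22439570), an ETS transcription factor induced by FGF signalling, was at 0.38 and 2.03 FPKM in fresh libraries. It was at 2.33, 3.88 and 3.16 FPKM after vitrification and at 2.62, 4.10 and 2.39 with melatonin. Both fresh libraries lay below all 6 vitrified ones, with fresh biosample 1 the lower of the pair. The log2 difference from fresh was 0.99 ± 0.35 after vitrification (limma adjusted p = 0.157) and 0.96 ± 0.35 with melatonin (adjusted p = 0.21). These differences turn on the fresh libraries. Without fresh biosample 2 they were 1.56 and 1.52 and passed with adjusted p of 0.0398 and 0.0402. In the same fit the calls over all genes went from 82 higher and 11 lower to 373 and 60 after vitrification, and from 0 and 0 to 415 and 150 with melatonin. Without fresh biosample 1 the differences of Etv5 were 0.42 and 0.39. Between the vitrified groups the difference was -0.04 ± 0.31, with an interval from -0.74 to 0.67.

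Etv4 (chromosome 11, 101769747 to 101785310), the close relative of Etv5, was at 0.16 and 0.28 FPKM in fresh and 0.19, 0.29 and 0.38 in vitrified libraries. With melatonin it was listed at 0, 0.20 and 0 FPKM. Taken over all 3104 annotated exon bases, these values stand for at most an estimated 9.7 fragments in any library. Differences in Etv4 were not detectable at this depth.

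The list of 28 genes of the ERK response holds Etv5, Spry2, Spry4 and Dusp6 as well, and some transcription factors through which ERK acts. Of these 28 genes, 16 were tested. With melatonin against vitrification alone, 1 passed, the AP-1 subunit Jun. It was at 2.99, 3.84 and 2.41 FPKM without and 0.18, 0.32 and 0.49 with melatonin, and at 1.29 and 1.29 FPKM in fresh libraries. Its log2 difference from fresh was 0.82 ± 0.23 after vitrification (limma adjusted p = 0.0975) and -0.79 ± 0.23 with melatonin (adjusted p = 0.161). Between the vitrified groups Jun was lower with melatonin by 1.61 ± 0.21 on the log2 scale (limma adjusted p = 0.0246). Of the 19 other settings tried, 6 kept this call and 12 lost it, among them leaving out any single vitrified or melatonin library, and at a mean of at least 5 FPKM Jun was not tested. The medians of the list were -0.31 after vitrification, -0.18 with melatonin against vitrification alone and -0.56 with melatonin against fresh, where all genes had 0.14, -0.05 and 0.09. In the last comparison 13 of 16 were below 0 and 5 of these had an unadjusted p below 0.05, as did 1 of those above 0, against 18.5% of all genes. The 13 included Cic, Erf and Srf, at -0.37, -0.61 and -0.60. These are transcription factors through which ERK acts, and their levels need not respond to it.

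Phlda1, a gene induced by growth factors, was at 6.29, 16.7 and 5.59 FPKM after vitrification and at 2.18, 2.58 and 2.51 with melatonin, against 7.53 and 6.92 in fresh libraries. Its log2 difference with melatonin against vitrification alone was -1.47 ± 0.33 (limma adjusted p = 0.125). Ier3, another early response gene, was at 0.50, 0.45 and 0.63 FPKM with melatonin and at 9.64 and 4.26 in fresh libraries, a log2 difference of -2.30 ± 0.62 (adjusted p = 0.147). Not all early genes were low with melatonin: Ier2, the most abundant of the list at a mean of 93.1 FPKM, had a log2 difference of 0.31 ± 0.29 against vitrification alone (adjusted p = 0.653).

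**Figure D3:**
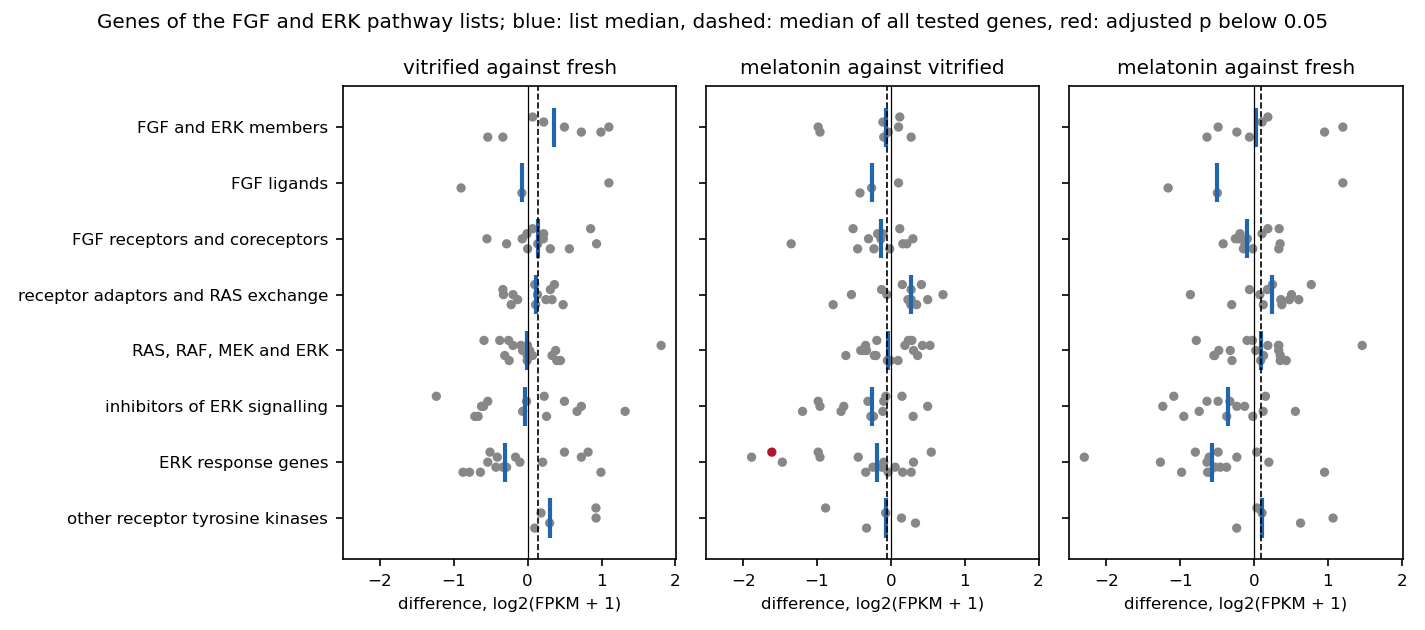
Differences of all tested genes of the 8 pathway lists on the log2(FPKM + 1) scale (horizontal axis), 1 point per gene, in 3 panels for the 3 comparisons; blue bars are list medians, the dashed line the median of all tested genes, and red marks an adjusted p below 0.05. The only red point is Jun with melatonin against vitrification alone; genes in 2 lists are drawn in both.

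The members did not share 1 profile over the libraries. Fgf4 and Etv5 were both lowest in fresh biosample 1, at -1.43 and -1.30 relative to their own means on the log2 scale, where Dusp6 was highest at 0.59. Spry2 and Spry4 were both highest in vitrified biosample 2, at 1.11 and 1.38. Nearest genes were sought by the root mean square distance between centred profiles over the 8 libraries. Of the members, only Dusp6 and Fgfr2 were abundant enough to be among the genes searched. The gene nearest to Spry4 among 5287 was the thrombin receptor F2r, at 0.28, and the second was Flrt3, at 0.34. The median distance of the genes searched from Spry4 was 0.86. Nearest to Fgf4 were Cpe, a carboxypeptidase, at 0.29, and the secreted phosphoprotein Spp1 at 0.33, with a median over the genes searched of 0.72. Nearest to Etv5 were the mitotic kinase Ttk at 0.16 and the DNA end-binding protein Xrcc5 at 0.18, and nearest to Spry2 were Spin1 at 0.20 and the superoxide dismutase Sod1 at 0.21. The gene nearest to Fgfr2 was Ap3d1 at 0.07, to Fgfr1 Pigl at 0.07, to Grb2 Hmgb2 at 0.09 and to Dusp6 Eif1b at 0.14. The 8 points of each profile share their libraries, including fresh biosample 1, and these distances carry no test.

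**Figure D4:**
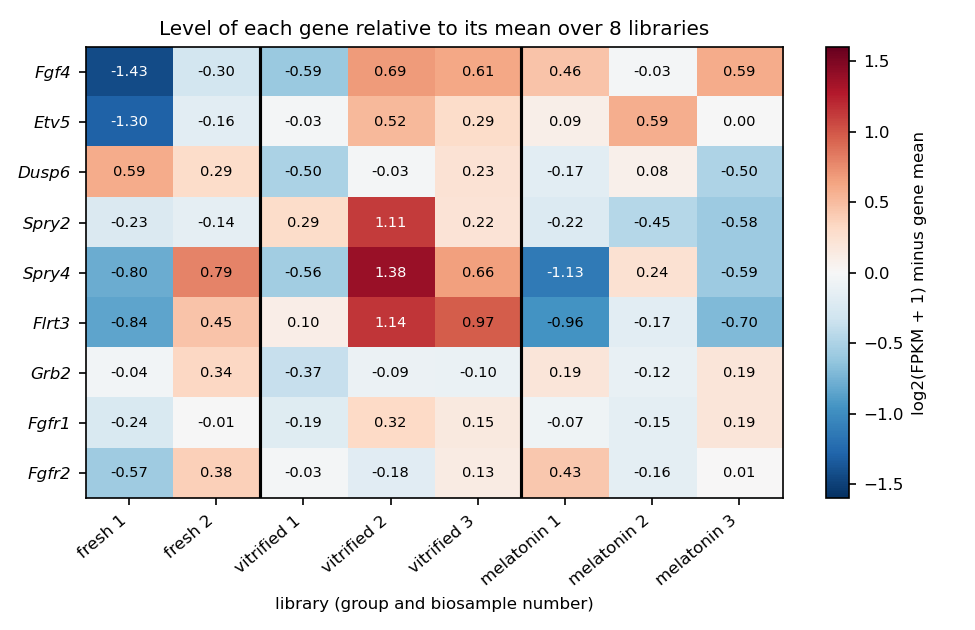
Level of 8 members and of Flrt3 on the log2(FPKM + 1) scale minus the mean of each gene over the 8 libraries (colour and printed number), with libraries as columns. Spry4 and Flrt3 are both low in fresh biosample 1 and melatonin biosample 1 and high in vitrified biosamples 2 and 3, and Fgfr1 and Grb2 stay within 0.37 of their means.

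**Figure D5:**
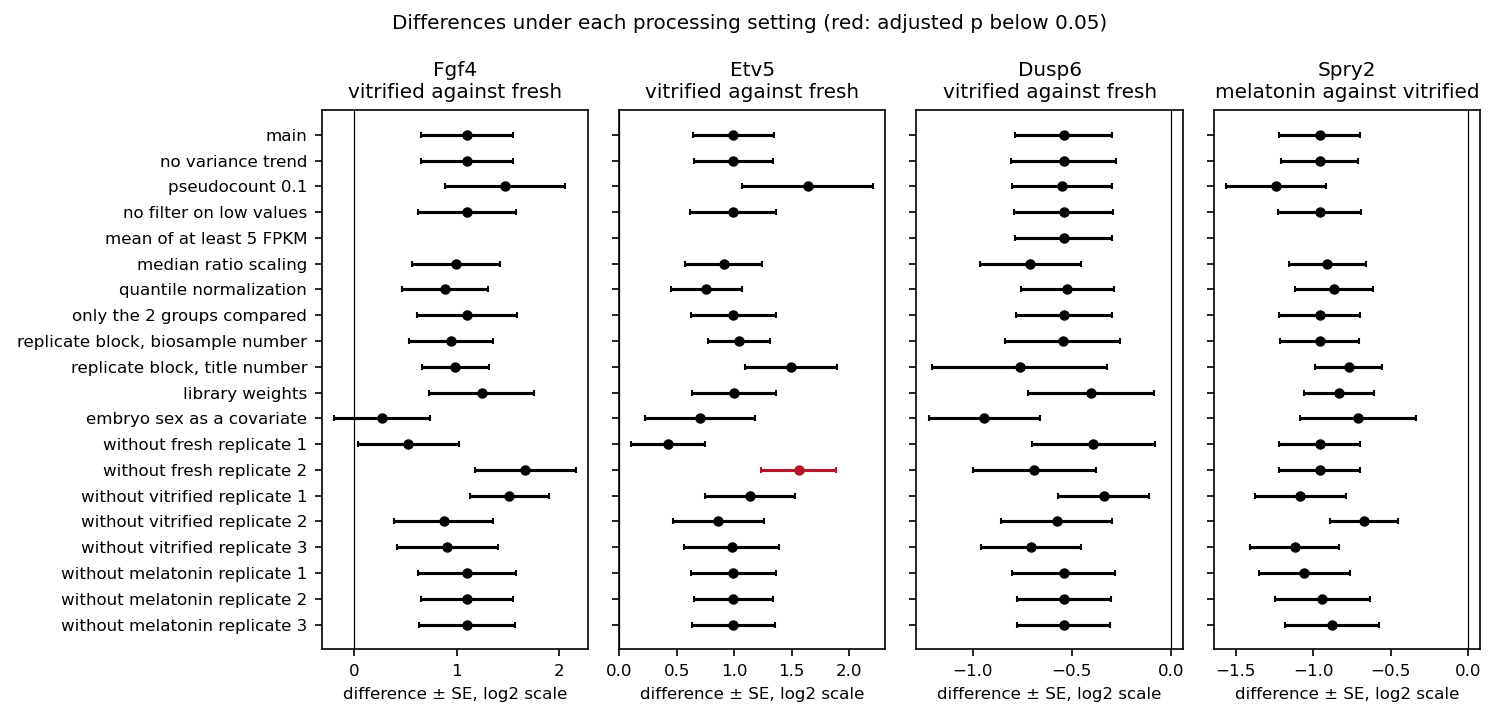
Log2 difference with its SE (horizontal axis) under the main analysis and 19 other settings (rows) for Fgf4, Etv5 and Dusp6 after vitrification and for Spry2 with melatonin against vitrification alone. Every point keeps the side of 0 of the main analysis, and the only red point, with an adjusted p below 0.05, is Etv5 without fresh biosample 2; Fgf4, Etv5 and Spry2 are not tested at a mean of at least 5 FPKM.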

How the data were processed

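Gene expression was measured by RNA sequencing in 8 libraries, grouped by their biosample descriptions. The authors deposited 1 table of FPKM per library, on build mm10 per the submitters' processing notes. The aligner, the counting tool, its annotation and any filter or strand setting were not given in these sources. The sources differ on the library method (Smart-seq2 in the design text, poly(A)-selected stranded libraries in the protocol). Fragments were estimated from the whole steps of low values in 4956 genes with 1 GENCODE M21 transcript (92.4% to 95.2% within 0.1 of a whole number).

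Genes reaching 1 FPKM in at least 2 libraries (10755 tested, 8933 not) were taken to log2(FPKM + 1) and fitted in R 4.3.3 by limma 3.58.1, 1 model for all libraries with a variance trend, Benjamini-Hochberg adjusted over all tested genes, two-sided, called below 0.05. Differences on this scale understate changes of low genes. The model was tried on simulated data with equal spread in every library. These held no outlying library such as fresh biosample 1, so they do not show how the model behaves with one. Each member was named. From each pathway list were named genes that passed, up to 3 in all by smallest p, and the gene with the highest mean. Nearest profiles were sought among genes with a mean of at least 5 FPKM, leaving out symbols with Rik or with Gm and a number. Members and lists were chosen with earlier results of these data known. Tables and plots used Python 3.11.15, pandas 2.3.3 and matplotlib 3.10.9.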

Additional observations from a re-analysis of the deposited data

How the results depend on the processing

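Each of 19 other settings was applied to the 24 member differences, giving 438 values, of which 403 kept their direction. Of the members, 0 were called in any of the 3 comparisons under each setting that kept all libraries. Leaving out each library gave 0 to 1 called member after vitrification and 0 to 1 with melatonin against fresh (Etv5 without fresh biosample 2 in both, where 373 genes were higher and 60 lower, and 415 and 150), and 0 throughout between the vitrified groups. With the biosample number or the title number as a replicate block, 0 members were called in each comparison. The labels do not say that equal numbers mark a shared day or litter, so the numbers were not taken to pair the libraries. Deviations from the group means were correlated across genes. The correlation was 0.12, 0.07 and -0.03 for the 3 pairs of vitrified and melatonin libraries with equal biosample numbers. Pairs of these groups with unequal biosample numbers had -0.12 to 0.05. Fresh libraries had -0.11 and -0.09 with the equally numbered vitrified ones, and -0.10 and -0.04 with those of melatonin. Pairs with equal title numbers had -0.11, 0.04, -0.09 and -0.03. These correlations carry no test. With the block by biosample number, 0 genes were higher and 1 lower after vitrification, against 82 and 11 without it.

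The values that changed sign were these, and the cause was not tested. After vitrification, Fgfr1 was at -0.033 with quantile normalization and -0.065 with the covariate for Y-linked transcripts, Fgfr2 at -0.087 with median ratio scaling and -0.11 with quantile normalization, and Spry4 at -0.55 with the covariate. With melatonin against vitrification alone, Fgf4 was at -0.024 with library weights and Fgfr2 at -0.12 with the title number as a block. Fgfr1 was there at 0.0091 with quantile normalization, 0.035 with the title block and 0.18 with the covariate. Spry4 and Dusp6 were at 0.065 and 0.31 with the covariate. Etv5 was at 0.0066 with median ratio scaling, 0.056 with quantile normalization, 0.16 with the title block and 0.26 with the covariate. With melatonin against fresh, Fgfr1 was at -0.024 with quantile normalization, and Spry4 and Fgf10 at 0.53 and 0.35 with the title block.

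Leaving out each library gave ranges across 0 for these: after vitrification, Fgfr2 -0.41 to 0.55 and Spry4 -0.29 to 1.29. With melatonin against vitrification alone they were Fgf4 -0.31 to 0.33, Fgfr1 -0.25 to 0.0042, Fgfr2 -0.046 to 0.25, Dusp6 -0.30 to 0.070 and Etv5 -0.22 to 0.095. With melatonin against fresh they were Fgfr1 -0.0066 to 0.23, Fgfr2 -0.29 to 0.67, Spry4 -1.28 to 0.31, Grb2 -0.25 to 0.13 and Fgf10 -1.16 to 0.17. Other ranges stayed on 1 side of 0 but moved by over 1.5 times from the main value. Those not given elsewhere were Fgfr1 0.10 to 0.36 after vitrification and, with melatonin against vitrification alone, Spry4 -1.51 to -0.54 and Ier2 0.18 to 0.45. With melatonin against fresh they were Spry2 -0.33 to -0.15 and Fgf3 -1.67 to -0.64. A lone remaining fresh library was assumed to vary like the other groups.

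With groups of 2 and 3 libraries, SEs of the members lie between 0.20 and 0.63, which limits what could be called.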

Other observations

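Of 18 other receptor tyrosine kinases listed, 5 reached the filter and 0 passed with limma in any comparison. Erbb3, a receptor of the epidermal growth factor family, was at 3.11 FPKM in fresh biosample 1 and at 11.2 to 16.3 FPKM in the other 7 libraries. Its log2 difference with melatonin against fresh was 1.07 ± 0.39 (adjusted p = 0.21), 0.24 without fresh biosample 1, and 1.90 without fresh biosample 2 (adjusted p = 0.00881). Erbb2, its signalling partner, was at 2.13 and 3.80 FPKM in fresh and 6.95, 4.33 and 4.11 FPKM in melatonin libraries, a log2 difference of 0.63 ± 0.30 (adjusted p = 0.291), 0.32 without fresh biosample 1 and 0.94 without fresh biosample 2. Pdgfra, a receptor of the primitive endoderm, was at 4.21, 5.03 and 3.34 FPKM after vitrification and at 1.41, 2.25 and 1.77 with melatonin. These groups did not overlap, with a log2 difference of -0.88 ± 0.37 (adjusted p = 0.314), while fresh libraries were at 0.53 and 3.79 FPKM.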
